A study of Sus scrofa with 4 samples.

Results

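The genes described here are the RAB, sorting nexin (SNX), VPS, vacuolar proton pump (ATP6V) and syntaxin (STX) genes of the pig, which were taken by symbol from the annotation of the EmbryoGENE porcine array: every symbol that starts with RAB, SNX, VPS or STX followed by a digit, or with ATP6V. This gave 122 genes of the 10022 that the annotation names, and 120 of them had a value on all 4 arrays, among 9947 such genes. They were 41 Rab GTPases, 8 proteins named as Rab partners, 20 sorting nexins, 25 VPS genes, 16 subunits of the proton pump and 10 syntaxins. The other members, SNX6 and VPS8, each lacked a value on 1 array. Together the 122 genes had 175 probes, 85 genes had a single probe, and the brightest probe stood for a gene that had several. The annotation at hand does not name VPS35, RAB4A or RAB5A, so these were not analysed here.

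Rab GTPases are molecular switches that sit on the cytosolic face of a membrane in their active form and recruit the motors, tethers and coats that move vesicles from one compartment to the next. Sorting nexins bind phosphoinositide lipids and, together with the retromer, carry receptors out of the endosome. The VPS proteins, named after yeast mutants that missort vacuolar enzymes, build the retromer, the tethers of the late endosome (HOPS and CORVET), the tether of the trans-Golgi network (GARP) and the ESCRT machinery that buds vesicles into the endosome lumen, while syntaxins drive the fusion itself and the vacuolar proton pump acidifies the compartments. In granulosa cells (GCs) this traffic takes up lipoprotein cholesterol for steroid synthesis and sorts gonadotrophin receptors.

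RNA was measured in porcine GCs from slaughterhouse ovaries that had grown for 7 days as a monolayer and were then cocultured with cumulus-oocyte complexes (COCs) throughout in vitro maturation (IVM). The NEFA group received a mixture of palmitic, stearic and oleic acid, the non-esterified fatty acids (NEFAs) of the study, and the control group the same medium with equal albumin and ethanol. Both media held EGF, FSH, LH, dibutyryl cAMP and follicular fluid at the start of IVM. A replicate was the pool of the wells of a single plate, each of the 4 replicates was prepared on its own day, and the RNAs of 1 replicate, NEFA and control, shared 1 array in different dyes (array A for replicate 1, B for 2, C for 3 and D for 4). A comparison in such pooled cells cannot tell fewer cells of a type from less RNA per cell.

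The direction of the comparison was not settled by the labels, and this touches every signed value below. The channel fields place NEFA in Cy3 (green) on arrays A and B and in Cy5 (red) on C and D, whereas the sample titles state the opposite on all 4 arrays. The channel fields were used, and reading the titles instead would turn every sign. The legend of the study lists AGPS, MAP3K8 and TLR6 as higher and IL33, GAPDH and AGO1 as lower with NEFAs, and TLR6 has no value here because the annotation at hand does not name it. By the channel fields the log2 ratio of NEFA to control was 0.46 for AGPS, 0.40 for MAP3K8 and -0.57 for IL33, which is the direction of the legend. It was -0.13 for GAPDH, with 1 of 8 signals above background, and 0.30 for AGO1, which is opposite to the legend. The legend takes its directions from the study's own analysis of these arrays, so a match is no independent evidence of the sign. For RT-qPCR on other replicates the legend reports the array direction for MAP3K8, TLR6, AGO1, IL33 and GAPDH, and does not name AGPS there. With array A exchanged, as described next, the values were 0.25 for AGPS, 0.20 for MAP3K8, -0.69 for IL33, -0.02 for GAPDH and 0.13 for AGO1, with the same signs.

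Array A added a further doubt. Arrays A and B carry the same dye orientation, yet their red over green ratios correlated at r = -0.737 over 43794 probes, and at -0.797 over the 120 trafficking genes, while the pairs among B, C and D correlated at 0.326 to 0.474 over all probes. The local background was higher in green than in red on array A (116.8 against 63.26) and higher in red than in green on B, C and D (60.77 to 75.15 in green and 115.7 to 173.3 in red). Calls and means are therefore given with the columns as headed and with the green and red columns of array A exchanged, which turns the sign of array A and leaves the other arrays as they are. The exchange was chosen because of this correlation, so the closeness of A and B under it, and the small errors that follow, are no independent evidence. A fit that leaves array A out and includes a dye term needs no reading of array A, and its values are given for the genes called in any fit. It rests on 3 arrays, with NEFA in green on B alone, and takes its spread from arrays C and D and from the other genes. If instead the dye labels of array A were opposite and its columns right, the sign of its NEFA to control ratio would be the same as under the exchange, but its part in the dye difference would turn. The fit with the dye term is therefore also given in that reading, which was added after seeing the data, and which of the readings holds was not tested. Over all probes array A correlated at -0.323 with C and -0.296 with D, which carry the opposite dye orientation. Whether array B instead of A is the exception was not tested, and values as headed without replicate 2 are given in the last section.

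Background was read from 153 negative control spots for each dye of each array, and a signal had to lie over 2 SD above their mean. Of the 120 trafficking genes 47 met this on every array in at least 1 of the groups and are called above background, 40 of them in all 8 signals, and 36 genes were not above background in any signal. Over all genes 2637 of 9947 were above background. The share of probes above background ran from 15.8% (array A, green) to 42.7% (array B, green). Of the 7 GC markers measured, AMH was above background in all 8 signals, AMHR2, GJA1, NR5A1 and NR5A2 in 3 to 5, and INHBA and LHCGR in none. Among 5 cumulus expansion markers measured VCAN was above background in all 8 signals, HAS2 in 7, PTX3 in 2, and EREG and PTGS2 in none. Of 9 smooth muscle and stroma genes measured ACTA2, COL1A2, DCN, LUM and TAGLN were above background in all 8 while COL1A1, PDGFRA, PDGFRB and CNN1 were in 1 to 5. CNN1, a smooth muscle gene with 5 signals above background, passed the criterion as higher with array A exchanged (0.34, and 0.00 as headed), and its part in the results below was not tested. With the exchange and a dye term VCAN (0.27, and -0.12 as headed) and GJA1 (0.35, and 0.26 as headed) passed as higher too. Their part was not tested either. The oocyte gene GDF9 was above background in all 8 signals and 8 of the 11 oocyte markers measured were in none. No theca, leukocyte or endothelial marker was above background on all 4 arrays in either RNA.

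Few trafficking genes passed the criterion of the study, an unadjusted p under 0.05 in limma together with 1.2-fold. With the columns as headed, 2 of 120 were called, SNX10 and VPS72, both lower with NEFAs, where 0.804% of all genes were called (0.281% higher and 0.523% lower). With array A exchanged 5 of 120 were called, RAB14 and VPS4B higher and SNX7, RAB28 and RAB27A lower, against 4.16% of all genes (1.08% higher and 3.09% lower). No member was called under both readings, and 48 of 120 had opposite signs in them. With the exchange and a dye term 7 members were called, where 6.72% of all genes were (3% higher and 3.72% lower), since VPS16 and SNX16 joined the 5 as higher. With array A left out and a dye term 6 were called, where 6.58% of all genes were (3.13% higher and 3.46% lower): RAB14, VPS4B and VPS16 higher and SNX7, RAB28 and SNX10 lower. With the dye labels of array A taken as opposite and a dye term 4 were called, RAB14 and VPS4B higher and SNX7 and RAB28 lower, where 4.37% of all genes were (1.86% higher and 2.51% lower). The shares of members were close to those of all genes in every fit but the one as headed, where the count was 2. Members were above background more often, 47 of 120 against 2637 of 9947 genes. With array A exchanged 2 of these 47 members were higher and 3 lower, where 66 and 263 of the 2637 genes were. With the exchange and a dye term it was 3 and 3, where 210 and 295 were. With array A left out and a dye term it was 3 and 3, where 202 and 254 were. The share of the 47 was below that of the 2637 in each of these fits, on few calls.

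After Benjamini-Hochberg adjustment over all 43794 probes no member passed 0.05 as headed (the smallest adjusted p was 1, and 4 members, where 1.43% of all genes, had an unadjusted p under 0.05), and none with array A exchanged (smallest adjusted p 0.641, where 0.0101% of all genes passed, with 5 members, where 5.86% of all genes, at an unadjusted p under 0.05). With the exchange and a dye term RAB14, VPS4B and SNX7 passed, 3 of 120, where 1.44% of all genes did. With the dye labels of array A taken as opposite the adjusted p of each of these 3 genes was 1. With array A left out and a dye term none did, where 0.181% of all genes did, and 6 members, where 8.01% of all genes, had an unadjusted p under 0.05. An exact permutation test that turns the signs of the 4 arrays cannot go below a two-sided p of 0.125, so single genes were judged by the fit across all probes. The median log2 ratio of NEFA to control was -0.02 over the members and -0.02 over all genes as headed, and 0.00 and -0.01 with array A exchanged.

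**Figure D1:**
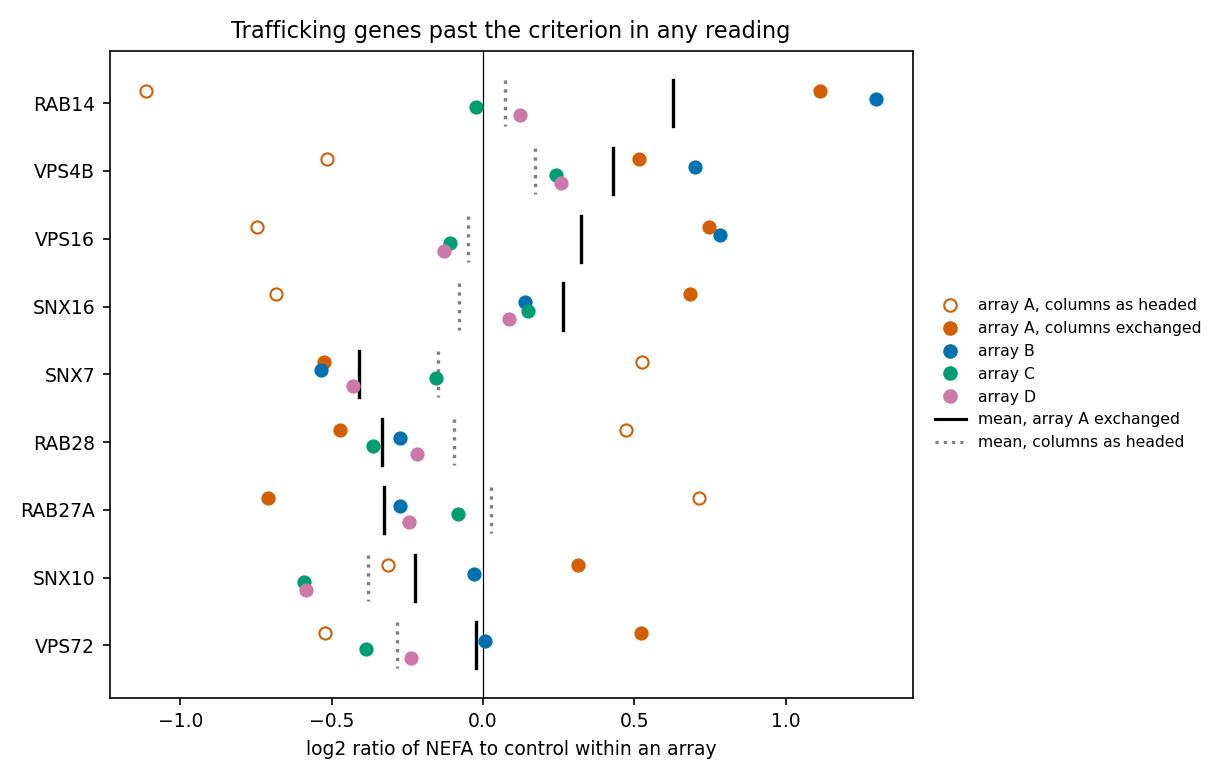
The log2 ratio of NEFA to control (horizontal axis) on each array for the 9 trafficking genes past the criterion in any reading. Open circles are array A as headed, filled circles array A exchanged and arrays B, C and D, the solid bar is the mean with array A exchanged and the dotted bar the mean as headed. For RAB14 the points of array A (-1.11 as headed) and array B (1.30) lie farthest from 0 while C and D lie near it, and for SNX7 arrays B, C and D all lie below 0.

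Among the Rab GTPases the largest value with array A exchanged was that of RAB14, a Rab of the early endosome and the trans-Golgi network that takes part in recycling. Its log2 ratio was -1.11 on array A as headed, 1.30 on B, -0.02 on C and 0.12 on D. Arrays A and B thus held nearly all of the difference, in opposite directions as headed, and C and D little. The mean was 0.07 (SE 0.35) as headed and 0.63 (SE 0.25, 1.54-fold) with array A exchanged, where it passed the criterion in limma. With the dye term the same 0.63 had an SE of 0.07 (adjusted p = 0.0133), beside a red over green difference of -0.58. Leaving out array A with a dye term gave 0.67 (SE 0.10, adjusted p = 0.0668). With the dye labels of array A taken as opposite it was 0.85 (SE 0.24). Without the dye term the call was lost when replicate 1 (0.47) or replicate 2 (0.40) was left out, with no replicate block, with background subtraction and with probes above background alone. A second, dimmer RAB14 probe gave 0.06 with array A exchanged and 0.24 as headed, and passed in neither reading.

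RAB28, a small GTPase found at the cilium of photoreceptors in mammals, was lower with array A exchanged. Its log2 ratios were 0.47 on A as headed, -0.27 on B, -0.36 on C and -0.22 on D, and arrays B, C and D were all below 0. The mean was -0.33 (SE 0.08, 1.26-fold) with array A exchanged, -0.10 (SE 0.15) as headed and -0.28 (SE 0.10) with array A left out. The first and the last of these passed, and with the exchange and a dye term the adjusted p was 0.0861. With array A exchanged it kept the call whichever replicate was left out, and fell under 1.2-fold with no background correction (-0.255). Of its 8 signals 6 were above background.

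RAB27A, which docks secretory granules and multivesicular bodies at the plasma membrane, was also lower with array A exchanged. Its log2 ratios were 0.71 on A as headed, -0.27 on B, -0.08 on C and -0.25 on D. Array A was the farthest from 0. The mean was -0.33 (SE 0.12) with array A exchanged, which passed, 0.03 (SE 0.18) as headed and -0.22 (SE 0.10) without array A, which did not. With the exchange and a dye term the adjusted p was 0.157. The call of the exchanged reading was lost without replicate 1 (-0.20), replicate 2 (-0.35) or replicate 4 (-0.36). It was also lost with no normalization between arrays (-0.22), probes above background alone, an intensity trend with a robust prior and the mean of its probes (-0.15). Its dimmer probes gave -0.10 and -0.02.

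The Rabs that mark the classical compartments were close to 0 or differed between readings. RAB7A, the Rab of the late endosome and lysosome, gave 0.03 on A as headed, -0.08 on B, 0.00 on C and 0.02 on D, and had a mean of -0.01 as headed and -0.02 (SE 0.07) with array A exchanged. RAB9A, which returns receptors from the late endosome to the Golgi, gave 0.03, -0.04, 0.02 and 0.12 in the same order, and 4 of its 8 signals were above background. All values of these genes lay within 1.2-fold. RAB11A, the Rab of the recycling endosome, gave 0.45 on A as headed, -0.27 on B, 0.01 on C and 0.06 on D, with a mean of 0.06 (SE 0.13) as headed and -0.16 (SE 0.11) with array A exchanged. RAB32, a Rab of mitochondria and lysosome-related organelles, gave 0.47, -0.27, -0.20 and 0.03, and its mean of -0.23 with array A exchanged (SE 0.10) missed the threshold. RAB2A, which works between endoplasmic reticulum (ER) and Golgi, gave 0.07, 0.16, -0.74 and -0.27, so array C was the lowest, with means of -0.20 and -0.23 in the 2 readings (SE 0.16 and 0.15).

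Some Rabs were brighter in the same dye on arrays B, C and D. The red over green differences given for single genes come from the fit with array A exchanged and a dye term, and they change if the dye labels of array A were opposite. RAB39B, a Rab of the ER and Golgi region known from neurons, gave 0.54 on A as headed, -0.75 on B, 1.09 on C and 0.91 on D. Once NEFA over control was turned back to red over green, the red channel was the brighter on B, C and D. Its red over green difference was 0.82 (0.62 with the dye labels of array A taken as opposite), and its NEFA over control mean was 0.45 (SE 0.30) as headed and 0.18 (SE 0.34) with array A exchanged. RAB6B, a neuronal Golgi Rab, showed the same order with 0.45, -0.33, 0.51 and 0.99 and a red over green difference of 0.57. RAB34, which sits at the Golgi and the forming cilium, ran the other way with -0.76, 0.35, -0.50 and -0.28 and a red over green difference of -0.47. Of all 41 Rab GTPases 23 had a mean above 0 and 18 below it with array A exchanged, and 24 and 17 as headed. Over all 9947 genes 4575 and 4167 were above 0 in these readings.

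The 8 Rab partners included 1 gene above background, RAB3GAP2, the noncatalytic subunit of the RAB3 GTPase-activating complex, which is also an exchange factor for RAB18. Its log2 ratios were -0.03, 0.02, -0.12 and 0.07 on arrays A (as headed) to D, and the means were -0.01 as headed and 0.00 with array A exchanged. No partner was called in any of the fits. The 4 RAB11 family effectors (RAB11FIP1 to RAB11FIP4) all had a mean below 0 in both readings, but 3 of them were not above background in any signal and their sizes are not given.

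**Figure D2:**
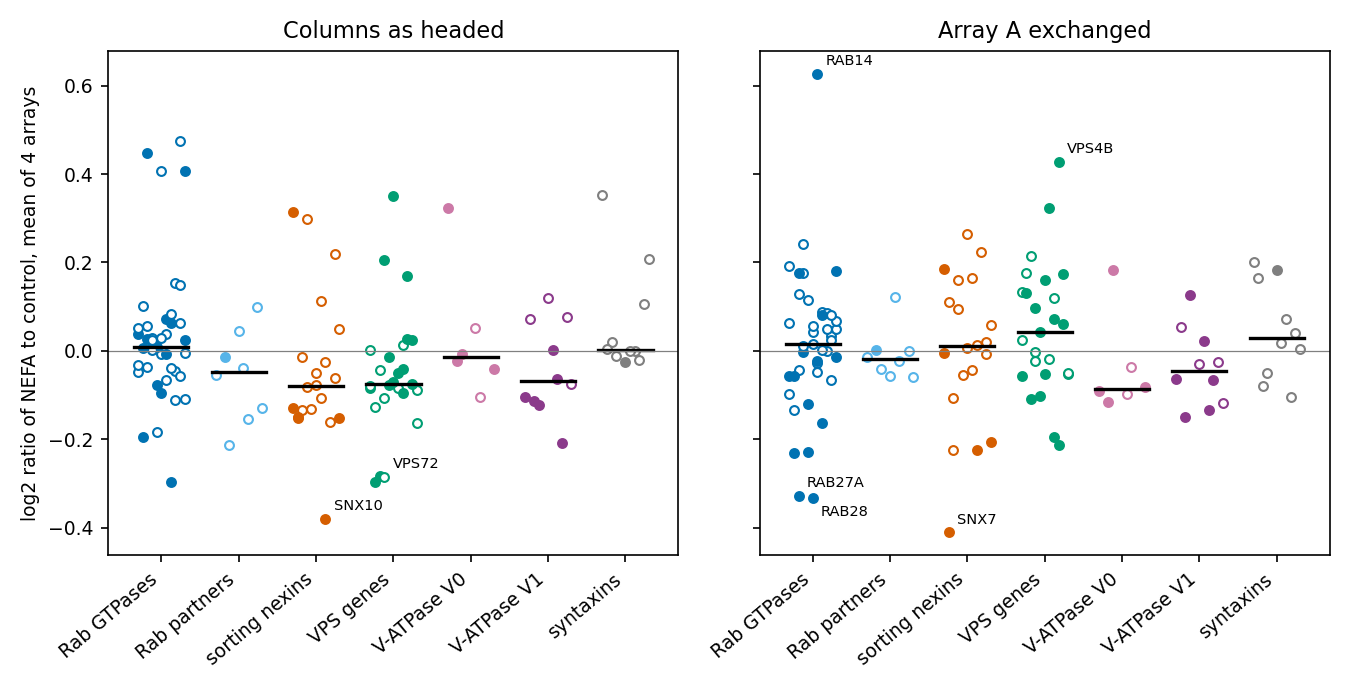
The NEFA to control log2 ratio averaged over 4 arrays (vertical axis) of each of the 120 trafficking genes by class, with the columns as headed (left) and array A exchanged (right). Filled points are genes above background, bars are class medians and names mark genes past the criterion. The class medians lie between -0.09 and 0.04 in both panels, and the named genes differ between the panels.

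Of the sorting nexins, SNX7, a member of the family with a BAR domain that binds and bends endosomal membranes, was lower with both of its probes once array A was exchanged. The log2 ratios of the brighter probe were 0.52 on array A as headed, -0.53 on B, -0.16 on C and -0.43 on D. Arrays B, C and D were all below 0, and array A was above 0 only as headed. The mean was -0.41 (SE 0.09, 1.33-fold) with array A exchanged, -0.15 (SE 0.18) as headed and -0.41 (SE 0.11) with array A left out, and it passed in the first and the last. With the exchange and a dye term the adjusted p was 0.0497. The second probe gave -0.47 with array A exchanged, which passed as well, and -0.26 as headed. The call with array A exchanged was kept whichever replicate was left out, and it was lost in a fit of separate channels with no replicate block.

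SNX10, which is required for endosome and lysosome function in osteoclasts and acts with the proton pump, was lower as headed. Its log2 ratios were -0.31 on A as headed, -0.03 on B, -0.59 on C and -0.59 on D, so all 4 arrays lay at or below 0 in that reading. The mean was -0.38 (SE 0.12, 1.3-fold) as headed, -0.22 (SE 0.17) with array A exchanged and -0.31 (SE 0.10) with array A left out, and it passed in the first and the last. In the fit with array A exchanged and a dye term its red over green difference was -0.36. As headed the call was lost without replicate 3 (-0.31) or replicate 4 (-0.31) and with no normalization between arrays (-0.25). An intensity trend with a robust prior and the mean of its probes (-0.14) lost it too. The second SNX10 probe, much dimmer, gave 0.11 as headed and 0.12 with array A exchanged, and neither passed.

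SNX16, a sorting nexin of early and late endosomes that falls outside the rule for naming and was added after its values were seen, gave -0.69 on A as headed, 0.14 on B, 0.15 on C and 0.09 on D. Array A stood apart in size in either reading. The mean was -0.08 as headed, and that of 0.26 with array A exchanged passed only with the dye term (adjusted p = 0.313), and leaving array A out gave 0.13 (SE 0.10). SNX3, which recruits the retromer for the return of Wntless and the transferrin receptor, gave 0.11, -0.04, -0.42 and -0.26, with means of -0.15 (SE 0.11) and -0.21 (SE 0.09), neither of which passed. SNX1, a partner of the retromer in endosomal tubules, gave -0.25, 0.21, -0.38 and -0.11, with means of -0.13 and -0.01. SNX25, which binds the TGF-beta receptor, gave 0.26, -0.34, 0.46 and 0.87, was brighter in red on B, C and D with a red over green difference of 0.48, and was not called. SNX6, measured on 3 arrays, gave -0.38 on A as headed, 0.55 on B and -0.26 on D.

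Among the VPS genes VPS4B, one of the AAA ATPases that take ESCRT-III filaments apart, was higher with array A exchanged. Its log2 ratios were -0.52 on array A as headed, 0.70 on B, 0.24 on C and 0.26 on D. Arrays B, C and D were all above 0. The mean was 0.43 (SE 0.10, 1.35-fold) with array A exchanged, 0.17 (SE 0.19) as headed and 0.47 (SE 0.10) with array A left out, and it passed in the first and the last. The adjusted p with the exchange and a dye term was 0.0366. The call was kept whichever replicate was left out and lost with no replicate block, and 7 of 8 signals were above background. Its paralogue VPS4A, which has 2 signals above background, gave -0.60, 0.45, -0.07 and -0.28, with means of -0.13 (SE 0.17) and 0.18 (SE 0.16).

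The other ESCRT members were not called. VPS28, a subunit of ESCRT-I, gave -0.86 on A as headed, 0.59 on B, -0.55 on C and -0.37 on D, with a mean of -0.30 (SE 0.23) as headed and 0.13 (SE 0.25) with array A exchanged. Green was the brighter channel on B, C and D, and the red over green difference was -0.59. Of the 8 ESCRT genes named VPS, 4 had a mean above 0 with array A exchanged and 1 as headed, where 4575 and 4167 of all 9947 genes had.

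VPS16, a core subunit shared by the HOPS and CORVET tethers, gave -0.75 on array A as headed, 0.78 on B, -0.11 on C and -0.13 on D. Arrays A and B were large and C and D small, as for RAB14. The mean was -0.05 (SE 0.23) as headed and 0.32 (SE 0.19) with array A exchanged, and it passed the criterion with the dye term (SE 0.07, adjusted p = 0.0699) and with array A left out (0.33, SE 0.10). Its second probe gave 0.27 and also passed with the dye term. VPS39, a subunit of HOPS, gave -0.35, 0.36, -0.65 and -0.50, with means of -0.28 (SE 0.17) and -0.11 (SE 0.20). Of the 6 HOPS and CORVET genes measured on all arrays 5 were below 0 as headed and 2 with array A exchanged, where 5780 and 5372 of all 9947 genes were. VPS8, the CORVET subunit measured on 3 arrays, gave 0.03 on A as headed, 0.12 on B and -0.31 on C.

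The retromer cargo-binding core was present in all 8 signals with VPS26A, VPS26B and VPS29, and none of them was called. VPS26A gave -0.07, 0.10, 0.11 and -0.04 on arrays A (as headed) to D, all within 1.2-fold. VPS29 gave 0.48, -0.26, -0.07 and -0.04, with means of 0.03 (SE 0.13) as headed and -0.21 (SE 0.10) with array A exchanged. VPS26B gave 0.38, -0.35, 0.41 and 0.97, had a red over green difference of 0.53 and means of 0.35 (SE 0.20) and 0.16 (SE 0.24). The arrays of VPS26B thus spread over both signs in either reading. VPS54 of the GARP tether gave 0.20, -0.03, -0.25 and -0.30, with means of -0.10 (SE 0.11) and -0.20 (SE 0.08), neither past the threshold. VPS13C, which moves lipids between the ER and late endosomes, was above 0 on all 4 arrays as headed (0.21, 0.07, 0.22 and 0.32). Its mean of 0.21 (SE 0.08) was under 1.2-fold, and it was 0.10 (SE 0.11) with array A exchanged.

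VPS72 carries a VPS name but is a subunit of chromatin remodelling complexes that handle the histone variant H2A.Z. It was lower as headed, with log2 ratios of -0.52 on A, 0.01 on B, -0.39 on C and -0.24 on D, and array B was the exception. The mean was -0.28 (SE 0.11) as headed, -0.02 (SE 0.16) with array A exchanged and -0.15 (SE 0.10) with array A left out, and only the first passed. The call was lost without replicate 1 (-0.21), replicate 3 (-0.25) or replicate 4 (-0.30), with a dye term, in both fits of separate channels, with background subtraction and with no background correction, and 3 of its 8 signals were above background.

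**Figure D3:**
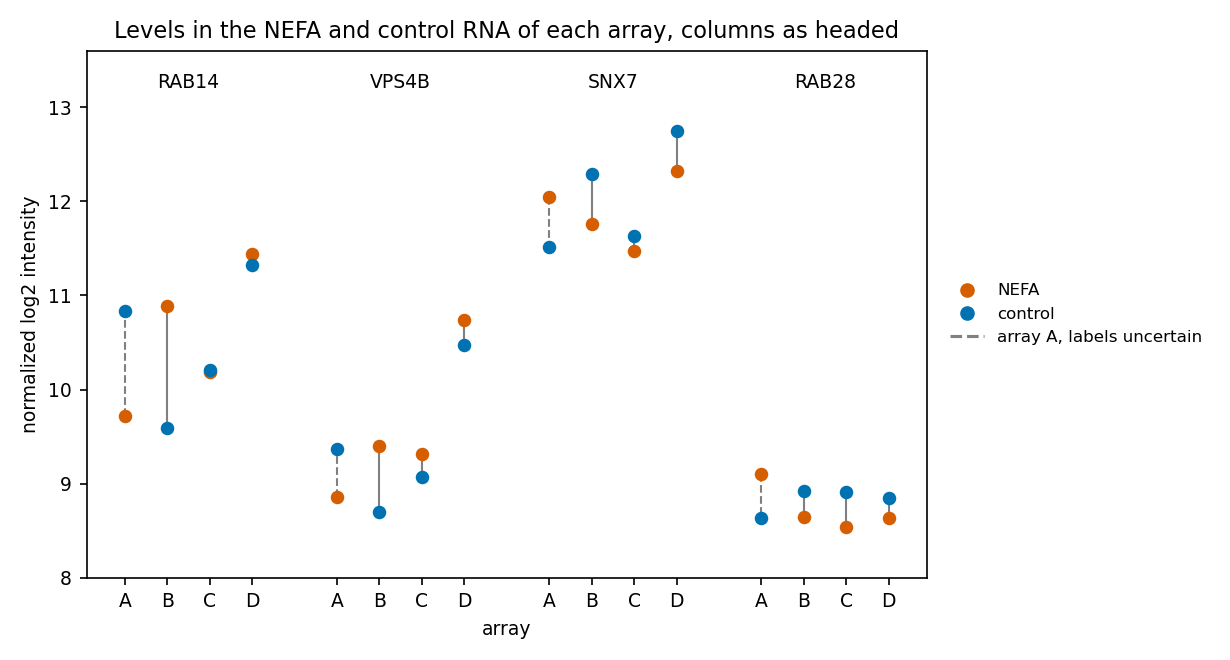
Normalized log2 intensity (vertical axis) in the NEFA (orange) and control (blue) RNA of arrays A to D for 4 genes, with the columns as headed. A line joins the RNAs of 1 array and is dashed for array A; heights are not comparable between genes. On arrays B, C and D the NEFA point is the higher for VPS4B and the lower for SNX7 and RAB28, on array A the order is turned, and RAB14 differs mainly on A and B.

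For VPS4B and SNX7 the levels behind these ratios differed more between arrays than between groups. For VPS4B the normalized log2 intensity of NEFA and control was 9.40 and 8.70 on array B, 9.31 and 9.07 on C, and 10.74 and 10.48 on D. The NEFA signal was the higher on each of the 3 arrays, while array D stood above B and C in both RNAs. For SNX7 it was 11.76 and 12.29 on B, 11.48 and 11.63 on C, and 12.32 and 12.75 on D, with NEFA the lower on each. The ranges of the groups over these arrays overlapped for both genes, and the differences are visible within arrays, where both RNAs of 1 replicate shared a slide.

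None of the 16 subunits of the vacuolar proton pump was called as headed, with the exchange, with the exchange and a dye term or with array A left out, where 0.804%, 4.16%, 6.72% and 6.58% of all genes were, shares that leave about 1 call or none among 16 genes. Calls were more frequent among the 2637 genes above background, with 66 higher and 263 lower under the exchange, and 210 and 295 with the dye term as well. Of 16 subunits 10 were above background, 4 of 6 in the membrane sector V0 and 6 of 10 in the cytosolic sector V1. As headed 6 subunits had a mean above 0 and 10 below it, and with array A exchanged 4 and 12. Over all 9947 genes 5780 were below 0 as headed and 5372 with array A exchanged. The medians of the subunits were -0.03 and -0.07. ATP6V1A, the catalytic subunit, gave -0.08 on array A as headed, 0.07 on B, 0.17 on C and -0.58 on D. Array D was far below the others, and the means were -0.10 (SE 0.14) and -0.06 (SE 0.14). ATP6V1B2, the other nucleotide-binding subunit, gave 0.14, -0.21, 0.05 and -0.24, with means of -0.06 and -0.13.

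ATP6V0C, the main subunit of the proton-carrying ring, gave -0.38 on A as headed, 0.49 on B, -0.14 on C and 0.00 on D. Its means were -0.01 (SE 0.15) as headed and 0.18 (SE 0.13) with array A exchanged, the highest of the pump genes in that reading. ATP6V0D1, which couples the sectors, gave 0.08, -0.06, -0.05 and -0.14, within 1.2-fold on every array. ATP6V0E1, a small membrane subunit, gave 0.19, -0.05, -0.23 and 0.00, also within 1.2-fold. ATP6V0A2, the isoform of subunit a found at the Golgi and endosomes, had the highest mean as headed, 0.32 (SE 0.16), from 0.83, -0.10, 0.44 and 0.12, and -0.09 (SE 0.20) with array A exchanged. In the V1 sector the means of ATP6V1C1, ATP6V1E1 and ATP6V1H were -0.12, -0.11 and -0.21 as headed and 0.13, -0.15 and -0.07 with array A exchanged, each with an SE of 0.10 to 0.17.

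**Figure D4:**
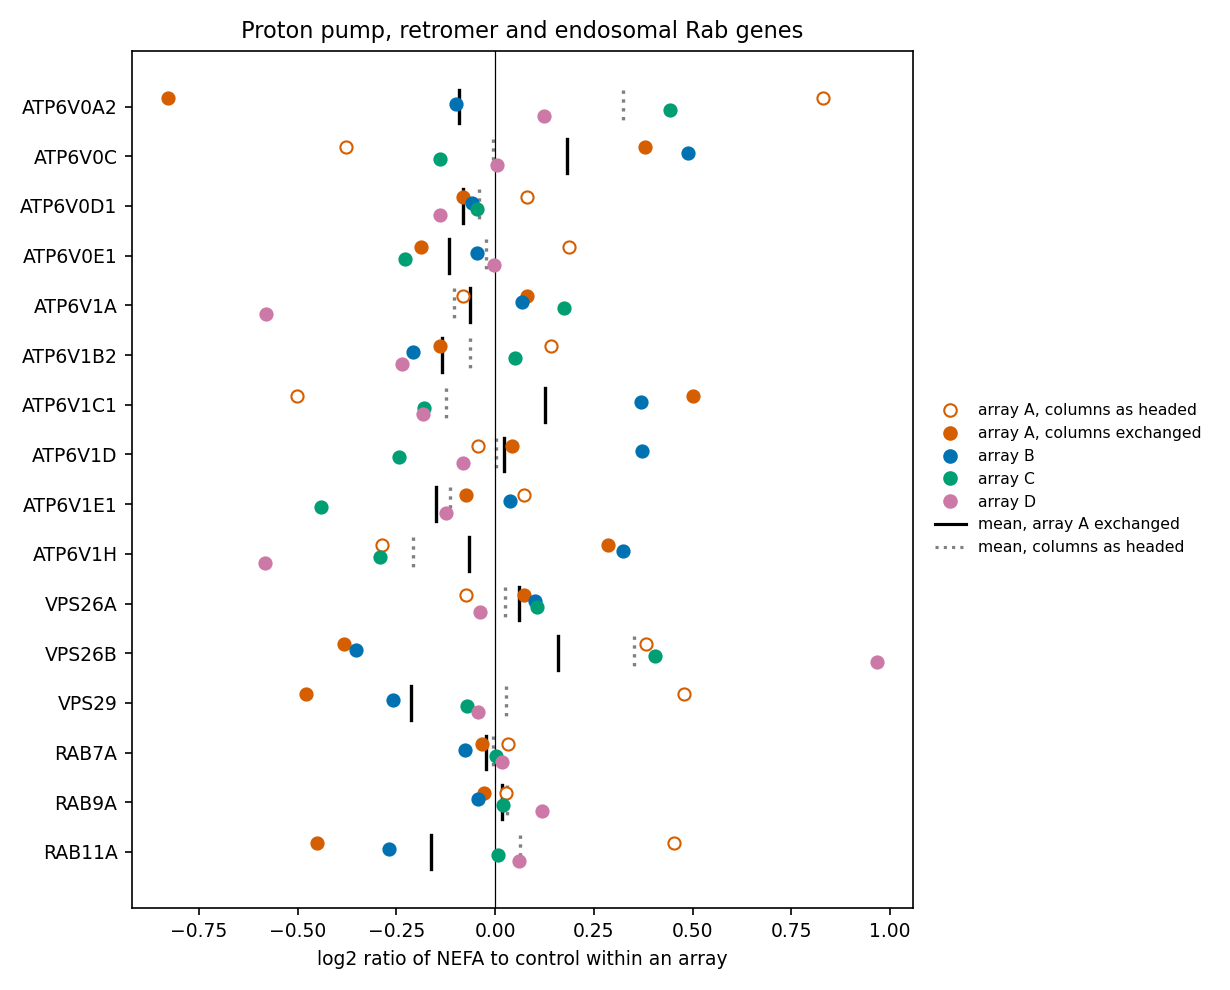
The log2 ratio of NEFA to control (horizontal axis) on each array for the 10 proton pump subunits above background, 3 retromer subunits and 3 endosomal Rabs. Symbols are open for array A as headed and filled for array A exchanged and arrays B, C and D, with the mean exchanged as a solid bar and the mean as headed as a dotted bar. RAB7A, RAB9A, VPS26A and ATP6V0D1 stay within 1.2-fold on every array, and ATP6V1A on array D (-0.58) and VPS26B on array D (0.97) stand apart.

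Of the 10 syntaxins 1 was above background, STX4, the syntaxin of the plasma membrane that takes part in regulated exocytosis, and none was called. STX4 gave -0.42 on A as headed, 0.17 on B, -0.16 on C and 0.31 on D, with means of -0.03 (SE 0.14) as headed and 0.18 (SE 0.11) with array A exchanged. The arrays of each dye orientation thus did not share a sign as headed. The median over the syntaxins was 0.00 as headed and 0.03 with array A exchanged, and 5 syntaxins had no signal above background.

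Under the exchange more trafficking genes differed between the dyes than between the groups, and this rests on the reading of array A. In the fit with array A exchanged and a dye term 25 of 120 members differed between red and green by 1.2-fold with an unadjusted p under 0.05, where 17.3% of all genes did, 11 of them brighter in red (8.24% of all genes) and 14 in green (9.09%), and 7 differed between NEFA and control. With the dye labels of array A taken as opposite none of the 120 differed between the dyes, where 1.24% of all genes did (0.442% brighter in red and 0.794% in green), and 4 differed between the groups. On arrays B, C and D 58 of 120 members had the same sign of red over green, and in 50 of these 58 array A had the opposite sign. Over all genes the sign was shared on B, C and D by 4402 of 9947, and array A was opposite in 3572 of them (81.1%).

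**Figure D5:**
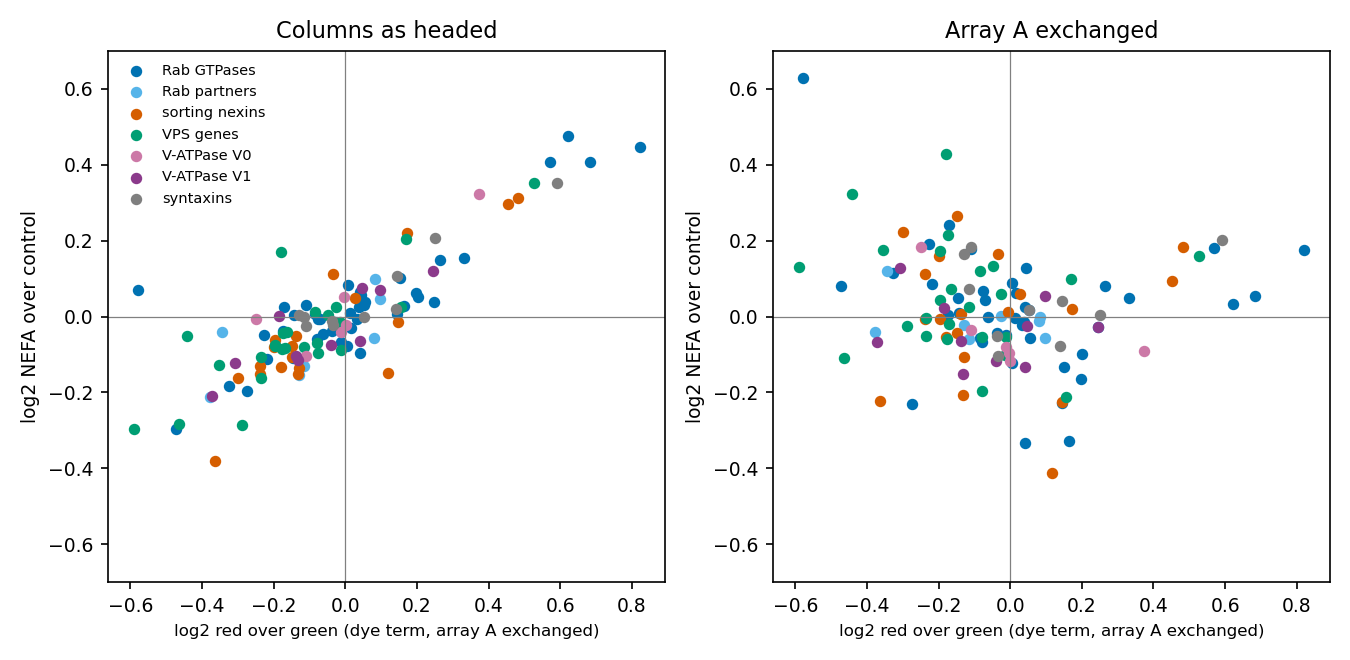
The averaged NEFA to control log2 ratio (vertical axis) against the log2 red over green difference from the fit with array A exchanged and a dye term (horizontal axis) for the 120 trafficking genes, coloured by class, as headed (left) and with array A exchanged (right). Both axes are computed from the same 4 arrays, and in the left panel they share the values of arrays A, C and D with the same sign, which ties them together by construction. Genes with the largest dye difference, such as RAB39B at 0.82, lie at 0.45 in the left panel and at 0.18 in the right.

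Where a gene had several probes, they often differed. Of 37 members with several probes, all probes of a gene had the same sign in 12 as headed and in 17 with array A exchanged. Among the 7 members called with the exchange and a dye term, SNX7 and VPS16 had a second probe past the same criterion, RAB14, RAB27A and SNX16 had other probes that did not pass, and RAB28 and VPS4B had a single probe.

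Genes of the same routes without these names were read from lists, in number called over number measured. As headed 2 of 37 genes of the Rab cycle were called, CHML and TBC1D1, both higher and neither above background in more than 1 of 8 signals, and none in the other 6 lists, where 0.804% of all genes were called (0.281% higher). With array A exchanged MON1B of the Rab cycle (1 of 8 signals above background) and SORT1 (0.39, and 0.11 as headed), the sorting receptor sortilin that the retromer returns to the Golgi, were higher, and BET1 (-0.39, and -0.06 as headed), a SNARE between ER and Golgi, and CHMP4B (-0.28, and -0.12 as headed), a filament subunit of ESCRT-III, were lower. These were 1 of 37, 1 of 14 retromer partners, 1 of 26 other SNARE genes and 1 of 10 other ESCRT genes, where 1.08% of all genes were called higher and 3.09% lower. A single call in lists of this size is too few to set against the share over all genes. None of 27 clathrin and adaptor genes was called in either reading.

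The lysosome list held 3 of 20 genes called with array A exchanged, where 4.16% of all genes were. Of the 20 genes 17 were above background, and calls were more frequent among such genes. In that fit 66 of the 2637 genes above background were called higher and 263 lower. LIPA, the acid lipase that frees cholesterol and fatty acids from lipoprotein esters, was higher at 0.44, and its value as headed was 0.18. NPC2, which hands cholesterol on from the lysosome lumen, was lower at -0.32 (-0.23 as headed), and ATP6AP2, an accessory protein of the proton pump, at -0.34 (-0.17 as headed). The count depended on the fit. None was called as headed, where 0.804% of all genes were. With the exchange and a dye term 3 were higher (CTSA and PSAP among them) and 3 lower (CTSS among them). In that fit 3% of all genes were higher and 3.72% lower, as were 210 and 295 of the 2637 genes above background. With array A left out and a dye term 5 were higher and 2 lower. There 3.13% of all genes were higher and 3.46% lower, as were 202 and 254 of the 2637 genes above background. With array A exchanged and a dye term LIPA had an adjusted p of 0.0342. In the autophagy list 1 of 18 was called, ATG3 (-0.37, and -0.26 as headed), the enzyme that joins LC3 to lipid.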

How the data were processed

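The authors labelled amplified GC RNA with Cy3 and Cy5 and deposited, per the file headers, mean intensity, mean local background and their difference for 45220 spots per array, not normalized. The depth is set by the 4 arrays, whose number limits the precision. A deposited table of log2 ratios by the authors, per the methods from loess, quantile and limma in FlexArray, could not be matched to the spots and was not used.

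In R 4.3.3 with limma 3.58.1, the 43794 expression probes were background-corrected (normexp, offset 50, in place of the subtraction of the methods), normalized by loess within and quantile between arrays, and fitted as within-array ratios by lmFit and eBayes, two-sided. Ignored spots (60 to 121 per array) were missing. The annotation names 1 gene for 13146 probes, and the other 30648 were not assigned to a gene here. In the annotation 165 symbols were updated. The deposited files hold no coordinates, and none are printed. The scripts were tested on simulated ratios with less spread than these data and every array in its assumed orientation. That test does not show what the fits recover at the spread of these data.

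Members and lists were chosen with earlier results of these data known. Named were members past the criterion as headed or exchanged, up to 4 per class above background with the smallest p, and fixed retromer, Rab and pump genes. Alternatives were other background corrections, median centring, no normalization between arrays, a dye term, bright probes, separate channels, a trended prior, the mean of probes, a 1.5-fold threshold and each replicate left out; the fits without array A, the opposite dye labels of array A and the alternatives of the exchanged reading were added after seeing the data.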

Additional observations from a re-analysis of the deposited data

Results flagged for a closer look

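On array D the NEFA to control log2 ratio of ATP6V1A was -0.58 with array A exchanged, and those of the other 3 arrays were 0.07 to 0.17. The gap to the nearest array was 0.86 of the whole range, above Dixon's critical value for 4 values. Chance alone gives such a gap in about 1 in 20 groups, and 37 genes were looked at.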

How the results depend on the processing

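The sign of every value rests on the channel fields, and the calls rest on the reading of array A. As headed 2 members and 80 of all genes were called. With array A exchanged it was 5 and 414, and with a dye term as well 7 and 668. Without 1 replicate the counts were 0 to 22 members and 27 to 1468 genes as headed, with the highest counts without replicate 2, the array that array A opposed. Those 22 members were 11 higher and 11 lower. In that fit the means were -0.34 for RAB14, -0.33 for VPS16, -0.01 for VPS4B and -0.02 for SNX7. They were -0.04 for RAB28, 0.13 for RAB27A, -0.50 for SNX10 and -0.38 for VPS72. Calls of the exchanged reading thus also rest on array B as headed. Leaving out 1 replicate in the exchanged reading gave 3 to 9 members and 310 to 673 genes, and with a dye term 6 to 13 members and 655 to 966 genes. With the dye labels of array A taken as opposite and a dye term the counts were 4 members and 435 genes. At 1.5-fold 0 members and 7 genes remained past the criterion as headed, 1 (RAB14) and 49 exchanged, and 1 and 76 with the dye term.

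Of the other settings, background subtraction, no background correction, no normalization between arrays, probes above background alone and a dye term each gave 1 member as headed. All genes numbered 19 with no background correction and 9 with probes above background alone. In the exchanged reading probes above background alone gave 3 members and 267 genes, and the dye term 668 genes. The arrays pair the RNAs of 1 replicate, and with no replicate block the count was 1 member and 44 genes as headed and 2 members and 151 genes exchanged. No normalization between arrays turned the split of all genes to 34 higher and 33 lower as headed, from 28 and 52, and to 181 and 121 exchanged, from 107 and 307. An intensity trend gave 40 and 40 as headed. The sign of RAB27A turned from 0.03 as headed to -0.33 with the exchange, and that of VPS16 from -0.05 to 0.32, both with or without the dye term. In the exchanged reading VPS16 passed the criterion only with the dye term. The causes were not tested beyond the exchange itself, which turns array A. The authors' table of ratios was not run as an alternative because its rows could not be matched.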
